A study of Mus musculus with 6 samples.

Results

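The mouse genes for the subunits of troponin, the calcium switch of striated muscle, were taken by name: *Tnnt1*, *Tnnt2* and *Tnnt3* for troponin T, *Tnni1*, *Tnni2* and *Tnni3* for troponin I, and *Tnnc1* and *Tnnc2* for troponin C. These are 8 of the 18089 genes in the table, and they hold 67 of its 58843 transcript rows. All 8 passed the filter on low counts, in a comparison that tested 14395 genes. RNA-seq had been run on ischemic gastrocnemius, the large calf muscle, from C57BL/6 males aged 8 to 10 weeks, 7 days after hindlimb ischemia (HLI), in which the femoral artery of one leg was ligated and cut out. The 2 groups were 3 wild-type (WT) libraries and 3 GPR174-KO (*Gpr174*-/Y) libraries. The knockout removes GPR174, a lysophosphatidylserine receptor of lymphocytes, in the whole animal, and no muscle without ischemia or from another day entered the comparison.

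Troponin sits on the thin filament, where it joins actin and tropomyosin. Troponin C binds calcium, troponin I holds back the contact of myosin with actin, and troponin T ties the complex to tropomyosin. Adult fast fibres use *Tnnt3*, *Tnni2* and *Tnnc2*, slow fibres use *Tnnt1*, *Tnni1* and *Tnnc1*, and the adult heart uses *Tnnt2* and *Tnni3* together with *Tnnc1*. *Tnnt2* is the cardiac troponin T, and skeletal muscle also makes it for a time while fibres form in the embryo or regenerate.

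In RefSeq's GRCm38.p6 annotation the 6 troponin T and I genes lie in 3 pairs. *Tnnt1* and *Tnni3* are neighbours on chromosome 7, *Tnni2* and *Tnnt3* lie near each other elsewhere on chromosome 7, and *Tnni1* and *Tnnt2* lie near each other on chromosome 1. *Tnnc1* is on chromosome 14 and *Tnnc2* on chromosome 2. The annotation places *Prr33*, a noncoding gene, over part of *Tnnt3* on the opposite strand. Whether the reads were counted by strand is not given in the sources used here, so reads of *Tnnt3* and of this antisense gene cannot be told apart.

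Upstream sequence was read from RefSeq windows of 300 bases (250 before a transcript start and 50 after it, GRCm38.p6), which matched 6 of the 8 genes with 8 windows. Windows for *Tnnt3* and *Tnni2* were not used here. The 250 upstream bases are shown for *Tnnc1* and *Tnnt2*, which were higher in GPR174-KO muscle, and for *Tnnc2*, which was lower. Capitals mark the E-box CANNTG, the site class of MyoD-family factors, and the MCAT motif CATTCC, the site class of TEAD factors, on either strand (GGAATG is CATTCC read from the other strand).
*Tnnc1*, chr14:31208062-31208311, plus strand: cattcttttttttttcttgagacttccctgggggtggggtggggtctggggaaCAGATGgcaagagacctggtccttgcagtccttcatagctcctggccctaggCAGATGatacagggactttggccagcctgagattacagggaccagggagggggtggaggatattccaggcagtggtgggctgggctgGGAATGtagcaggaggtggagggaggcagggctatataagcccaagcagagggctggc
*Tnnt2*, chr1:135836084-135836333, plus strand: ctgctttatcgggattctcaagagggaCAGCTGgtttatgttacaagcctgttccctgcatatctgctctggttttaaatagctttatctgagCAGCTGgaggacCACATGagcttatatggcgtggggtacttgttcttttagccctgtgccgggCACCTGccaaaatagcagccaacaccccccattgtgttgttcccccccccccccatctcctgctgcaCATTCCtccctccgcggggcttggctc
*Tnnc2*, chr2:164779735-164779984, minus strand: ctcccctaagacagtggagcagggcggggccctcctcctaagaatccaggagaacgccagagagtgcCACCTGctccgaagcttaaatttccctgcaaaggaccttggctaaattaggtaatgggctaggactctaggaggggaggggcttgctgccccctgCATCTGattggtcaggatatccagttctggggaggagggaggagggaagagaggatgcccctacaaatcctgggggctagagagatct
An MCAT match lay at position -58 of *Tnnc1* and at -27 of the *Tnnt2* window shown, counted to the first base of the match from the transcript start. None of the other 6 windows held a match, and 1 of these was a second *Tnnt2* window (chr1:135836739-135836988). Of the genes called lower, only *Tnnc2* had a window, so the windows do not compare higher with lower genes. Of 32851 mouse windows of the same length, 14.7% held CATTCC. An E-box was found in each of the 8 windows, and 72.3% of all windows held one. The letters TATAAA were found once, at -30 of *Tnnt1* (13.6% of all windows), and the CArG and MEF2 motifs in none of the 8 windows (1.63% and 3.19% of all windows). No match overlapped another. These are matches of letters in windows, not measured sites.

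Levels are given as TPM, the authors' abundance per transcript length and library, summed over the transcripts of a gene, which allows genes to be compared with each other. Library totals ranged from 18417077 to 18695013 expected counts in WT and from 19173036 to 19394469 in GPR174-KO. The disrupted gene itself had between 2 and 8 counts in the WT libraries and at most 1 in a GPR174-KO library. Replicate 2 lay between the other two libraries of its group for 8 of 8 members in WT and 7 of 8 in GPR174-KO, and for 77.1% and 68.2% of 9972 genes, where in 3 unrelated libraries each would be the middle one equally often. The standard errors and adjusted p-values below take the 3 libraries of a group as independent, which was not tested. The fast troponins were far above all others. In WT muscle *Tnnt3* stood at 22170 ± 2820 TPM, *Tnnc2* at 20190 ± 1710 TPM and *Tnni2* at 13610 ± 1800 TPM (SD, n = 3 here and for each level). Next came *Tnni1* at 552.5 ± 166 TPM and *Tnnt1* at 276 ± 31.6 TPM, then *Tnnt2* at 154.8 ± 52 TPM and *Tnnc1* at 147.8 ± 60.1 TPM, and last *Tnni3* at 2.46 ± 0.739 TPM. Within this order the libraries of *Tnnt3* and *Tnnc2* overlapped, as did those of *Tnnt2* and *Tnnc1*. In GPR174-KO muscle the order of the first 4 genes was *Tnnc2*, *Tnnt3*, *Tnni2* and *Tnni1*, with the libraries of *Tnnc2* and *Tnnt3* again overlapping. *Tnnt2* (492.1 ± 25.1 TPM) then lay above *Tnnc1* (407.3 ± 11.4 TPM) and *Tnnt1* (369 ± 33.4 TPM), and the libraries of the last pair overlapped.

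**Figure D1:**
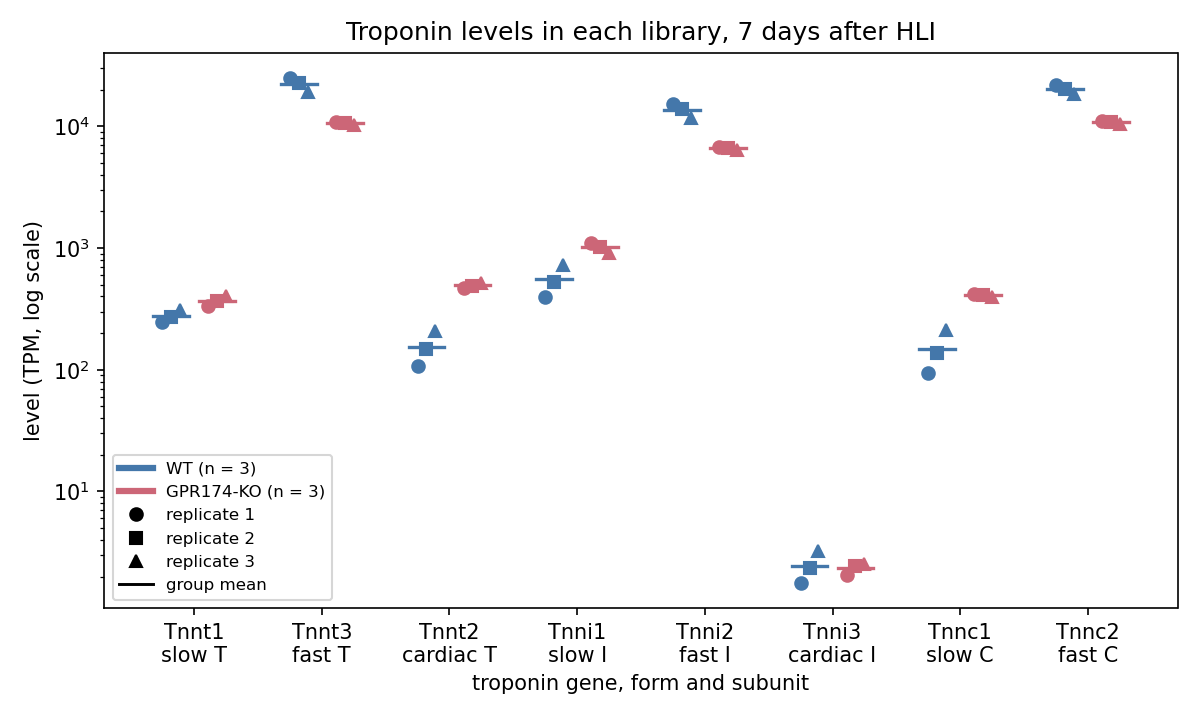
Level of each troponin gene in each of the 6 libraries, in TPM on a log axis, with WT in blue, GPR174-KO in red, a symbol for each replicate and a line for the group mean (n = 3). The 3 fast genes lie at or above 6427 TPM in every library and lower in GPR174-KO, while *Tnnt2* and *Tnnc1* are higher in GPR174-KO and *Tnni3* is at most 3.24 TPM.

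The 3 fast troponins were lower in GPR174-KO muscle. *Tnnt3*, fast troponin T, measured 24770, 22560 and 19180 TPM in the WT libraries (replicates 1, 2 and 3, an order kept for all values below), while GPR174-KO gave 10870, 10690 and 10260 TPM. *Tnni2*, fast troponin I, measured 15270, 13850 and 11700 TPM in WT and 6794, 6658 and 6427 TPM in GPR174-KO. *Tnnc2*, fast troponin C, measured 21780, 20400 and 18390 TPM in WT and 11040, 10780 and 10400 TPM in GPR174-KO. For each of these genes every GPR174-KO library lay below every WT library, and the WT library nearest to the GPR174-KO group was replicate 3. The log2 fold change (GPR174-KO minus WT, edgeR on counts scaled by TMM) was -1.45 for *Tnnt3* (SE 0.16, adjusted p = 0.0011), 36.5% of the WT level on this scale. *Tnni2* fell by 1.44 on the log2 scale (SE 0.15, adjusted p = 0.00102) and *Tnnc2* fell by 1.31 (SE 0.14, adjusted p = 0.000956). The 3 values differed by less than the SE of the first. In bulk muscle, fewer fibres and less of an RNA per fibre cannot be told apart.

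*Tnnt2* and *Tnnc1* were the members called higher. *Tnnt2* measured 106.5, 148.1 and 209.9 TPM in WT and 467.8, 490.8 and 517.9 TPM in GPR174-KO. *Tnnc1*, which serves both slow fibres and heart, measured 93.61, 137.3 and 212.4 TPM in WT and 415.1, 412.7 and 394.2 TPM in GPR174-KO. The groups did not overlap for either gene. The WT libraries were spread widely, with the highest 1.97 times the lowest for *Tnnt2* and 2.27 times for *Tnnc1*, whereas the GPR174-KO libraries were within 1.11 and 1.05 times. The log2 fold change was 1.3 for *Tnnt2* (2.46-fold, SE 0.19, adjusted p = 0.0022) and 1.09 for *Tnnc1* (2.13-fold, SE 0.23, adjusted p = 0.0079). By mean TPM, without TMM, GPR174-KO was 3.18 times WT for *Tnnt2* and 2.76 times for *Tnnc1*. Without WT replicate 1, the log2 fold change of *Tnnc1* was 0.88, still called but under 1.

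The other 3 members did not pass the test. *Tnni1*, slow troponin I, measured 399, 529.8 and 728.9 TPM in WT and 1106, 1013 and 914 TPM in GPR174-KO, with a log2 fold change of 0.49 (SE 0.19, adjusted p = 0.0623). *Tnnt1*, slow troponin T, measured 247.6, 270.2 and 310.1 TPM in WT and 336.8, 366.8 and 403.4 TPM in GPR174-KO, with a log2 fold change of 0.03 (SE 0.07, adjusted p = 0.758; 2 SE on either side reach from -0.12 to 0.17). On TPM both genes were higher in each GPR174-KO library than in each WT library, but on counts scaled by TMM the groups overlapped. *Tnni3*, cardiac troponin I, had 16, 23 and 30 counts in WT and 19, 23 and 22 in GPR174-KO, and its log2 fold change was -0.43 (SE 0.23, adjusted p = 0.148; 2 SE on either side reach from -0.89 to 0.02). These counts are few, so the precision for *Tnni3* is low.

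In all, 2 of 8 members were called higher, where 27.0% of all tested genes were called higher, and 3 were called lower, where 27.6% of all genes were. All 5 called members were past both thresholds of the study, 0.05 for the adjusted p and 1 for the absolute log2 fold change. Over all genes tested, 3.45% were past both thresholds as higher and 4.84% as lower. On counts scaled by TMM, 2 members had no overlap between groups as higher and 3 as lower, beside 33.1% and 32.4% of all genes. The median log2 fold change was -0.2 over the members and 0.0 over all genes.

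The scaling matters for the members near 0. With total counts in place of TMM the median of all genes moved up by 0.27 to 0.28, and with log2(FPKM + 1) it moved to 0.24. The share of higher genes among all called genes went from 49.5% to 78.4% with total counts and 78.9% with log2(FPKM + 1). *Tnnt1* then stood at 0.3 under both, close to those medians, and passed the test (adjusted p = 0.0309 with total counts). *Tnni1* stood at 0.75 with total counts (adjusted p = 0.0173), above the median, and also passed in edgeR without WT replicate 3 (log2 fold change 0.7, adjusted p = 0.00353) and in DESeq2 (adjusted p = 0.023). The 5 called members kept their direction and their call under each of the 16 alternatives run.

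**Figure D2:**
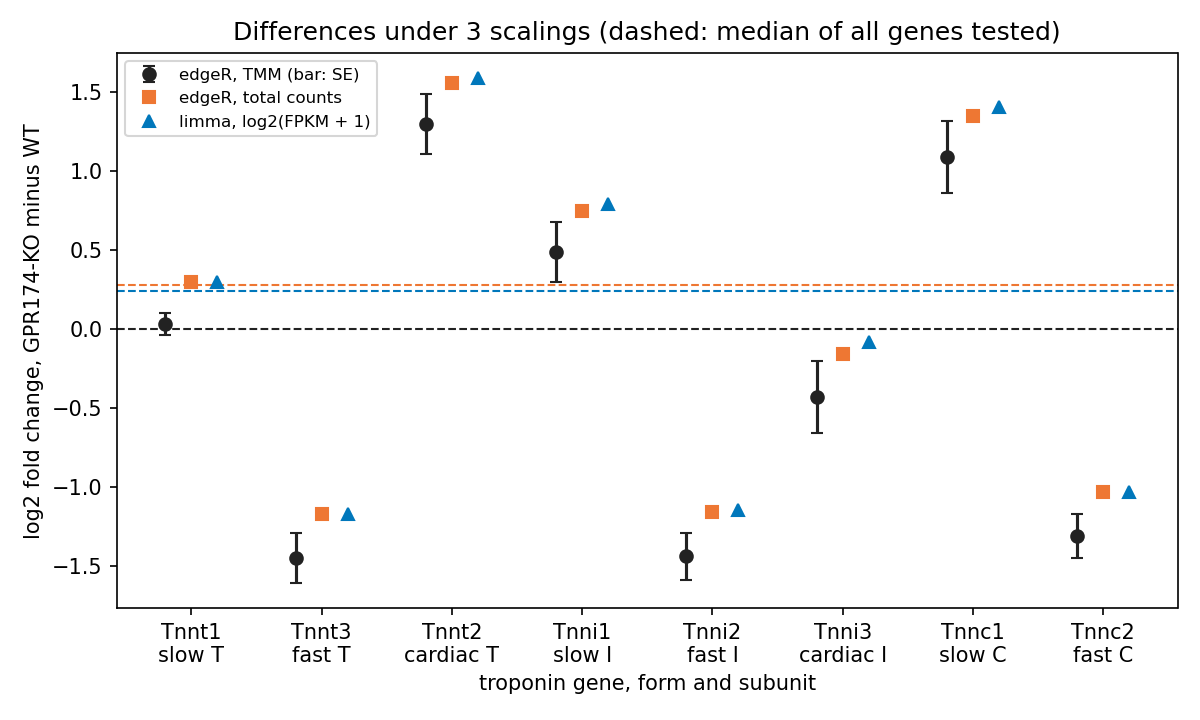
Log2 fold change of each troponin gene (GPR174-KO minus WT, n = 3 each) from edgeR with TMM (black, bars are the SE), edgeR with total counts (orange) and limma on log2(FPKM + 1) (blue), with the median of all genes tested as a dashed line for each. *Tnnt1* lies on the median under each scaling (0.03 against 0.0, and 0.3 against 0.28 and 0.24), while the fast genes lie below -1 and *Tnnt2* and *Tnnc1* above 1.

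The ratio of 2 genes in the same library does not depend on the scaling of that library. Fast troponin C was 233, 149 and 86.6 times slow troponin C by TPM in WT, and 26.6, 26.1 and 26.4 times in GPR174-KO. Fast troponin I was 38.3, 26.1 and 16.1 times slow troponin I in WT, and 6.14, 6.57 and 7.03 times in GPR174-KO. Fast troponin T was 100, 83.5 and 61.9 times slow troponin T in WT, and 32.3, 29.2 and 25.4 times in GPR174-KO. The fast form thus remained the most abundant of each subunit in every library, and the excess was smaller in each GPR174-KO library than in each WT library. On the log2 scale the slow to fast ratio was higher in GPR174-KO by 2.45 for troponin C, 1.94 for troponin I and 1.48 for troponin T. An exact two-sided permutation test gave p = 0.1 for each, adjusted p = 0.1 over 5 ratios, and 0.1 is the smallest p that 3 against 3 libraries allow.

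Among the troponin T forms the order of the 2 minor ones turned over. Cardiac *Tnnt2* was lower than slow *Tnnt1* in the WT libraries, at log2 ratios of -1.22, -0.87 and -0.56, and higher in the GPR174-KO libraries, at 0.47, 0.42 and 0.36. The difference was 1.3 on the log2 scale (exact permutation p = 0.1, the smallest possible). As a share of all troponin T by TPM, *Tnnt2* made up 0.424%, 0.645% and 1.07% in WT and 4.01%, 4.25% and 4.63% in GPR174-KO. The share of *Tnnt3* was lower, going from 98 ± 0.626% in WT to 92.5 ± 0.678% in GPR174-KO (SD, n = 3), and that of *Tnnt1* went from 1.25 ± 0.3% to 3.22 ± 0.363%.

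Within troponin I, *Tnni1* supplied 2.55%, 3.68% and 5.86% in WT and 14%, 13.2% and 12.4% in GPR174-KO. Cardiac *Tnni3* supplied at most 0.0349% in any library. Within troponin C, *Tnnc1* supplied 0.428%, 0.668% and 1.14% in WT and 3.62%, 3.69% and 3.65% in GPR174-KO. The groups did not overlap for any of the 8 shares (exact permutation p = 0.1 for each, adjusted p = 0.1 over 8 shares, the smallest possible). The shares of a subunit add up to the whole, so they are not separate results. Those of *Tnnc1* and *Tnnc2* mirror each other, and a lower fast share raises the others by itself. For *Tnni3*, the nearest libraries were at 0.0261% (WT replicate 3) and 0.0263% (GPR174-KO replicate 1), while its own log2 fold change was -0.43.

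**Figure D3:**
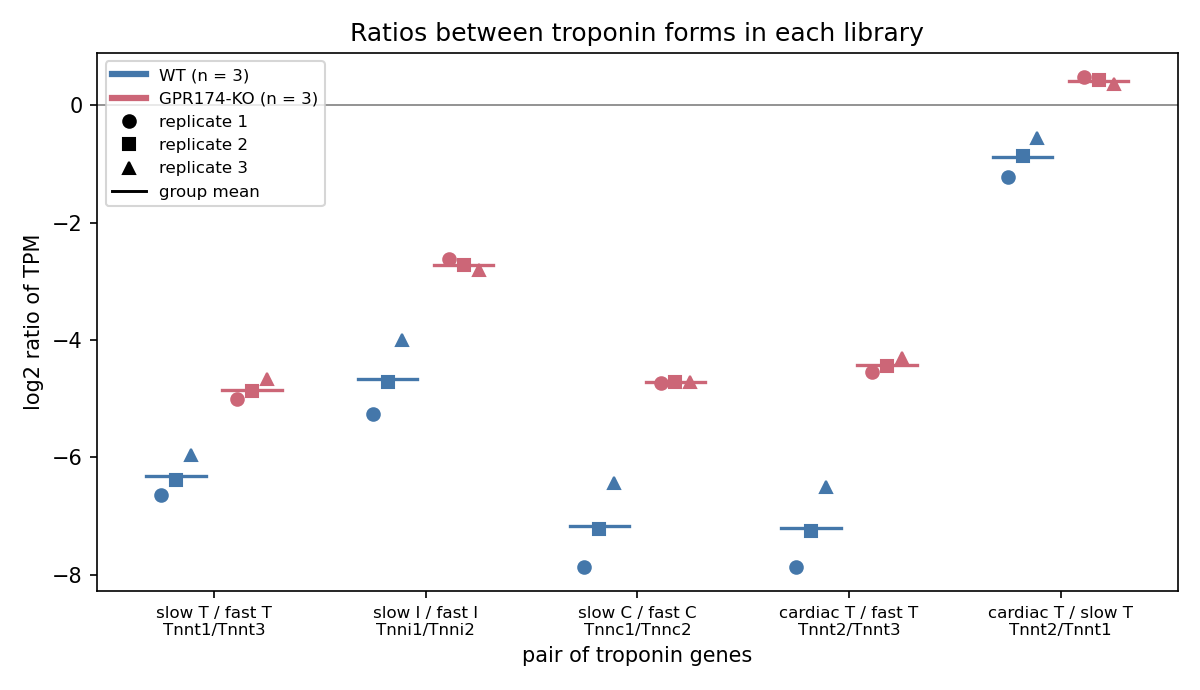
Log2 ratio of TPM for 5 pairs of troponin genes in each library, with WT in blue, GPR174-KO in red, a symbol for each replicate and a line for the group mean (n = 3). In each pair all GPR174-KO libraries lie above all WT libraries, and the cardiac to slow troponin T ratio lies below 0 in WT and above 0 in GPR174-KO.

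Added up by subunit, all forms together gave 22600 ± 2730 TPM of troponin T in WT and 11470 ± 255 in GPR174-KO. Troponin I came to 14160 ± 1630 and 7639 ± 280 TPM, and troponin C to 20340 ± 1650 and 11140 ± 333 TPM. The 3 sums in GPR174-KO were 0.507, 0.539 and 0.548 of those in WT. These are ratios of mean TPM, without TMM, and are not on the scale of the fold changes above. By mean TPM, *Tnnt3*, *Tnni2* and *Tnnc2* alone were at 0.479, 0.487 and 0.532 of WT. The 8 genes together took between 5.07% and 6.27% of all TPM in the WT libraries and between 2.93% and 3.1% in the GPR174-KO libraries.

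Transcript rows were described next, for the transcripts that hold at least 10% of their gene in either group. The authors' program divides reads among overlapping transcripts by estimation, an error that the test does not carry. Of the 67 rows 57 were tested, 2 were called higher and 24 lower, against 6.01% and 6.41% of 35524 transcripts. No troponin row was called when WT replicate 2 or any 1 of the GPR174-KO replicates was left out, although 30 to 32 had an unadjusted p under 0.05 in those edgeR fits. With all 6 libraries, DESeq2 called 32 troponin rows. Of the 40 rows of *Tnnt3*, 35 were tested, 22 were called lower and none higher. No row of *Tnnt1*, *Tnni1* or *Tnnc1* was called.

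Troponin T genes are spliced in many ways near their 5′ ends. Exons were read from the GENCODE M21 models paired with the RefSeq transcripts, and a pair of short exons, picked after the transcript values had been seen, are printed because the forms with and without them differed in level. Since they were picked in this way, the shares of forms with and without them are a description, with no test. They are given 5′ to 3′ with the exon in capitals and 15 flanking bases of the spliced transcript on each side. Exon numbers and flanks are those of the models paired with NM_001163665.1 (*Tnnt3*) and NM_001130175.2 (*Tnnt2*). They can differ in other forms with the exon, such as NM_001130176.1, whose model has 15 exons.
*Tnnt3*, 39 bases, exon 9 of 18, chr7:142507750-142507788 (GRCm38), plus strand: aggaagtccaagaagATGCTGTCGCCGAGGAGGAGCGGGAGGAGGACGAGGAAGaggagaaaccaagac
*Tnnt2*, 30 bases, exon 5 of 16, chr1:135843785-135843814 (GRCm38), plus strand: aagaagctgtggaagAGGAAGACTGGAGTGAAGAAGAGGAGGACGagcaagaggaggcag
The *Tnnt2* exon is the one known for its use in the embryonic heart.

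Of *Tnnt2*'s rows, 2 held most of its TPM. NM_001130176.1, which has the 30-base exon, measured 43.63, 71.17 and 76.09 TPM in WT and 171.6, 153.2 and 145.7 TPM in GPR174-KO. NM_011619.3, which lacks the exon, measured 52.09, 59.41 and 110.2 TPM in WT and 257.8, 291.9 and 318.4 TPM in GPR174-KO. Both were higher in every GPR174-KO library, with log2 fold changes of 0.96 (SE 0.21, adjusted p = 0.0464) and 1.63 (SE 0.28, adjusted p = 0.027). Of 13 alternatives, 6 called the form with the exon (adjusted p up to 0.218) and 7 the form without it (adjusted p up to 0.128), and all 13 kept both values above 0. The form with the exon was not called without WT replicate 3 either (adjusted p = 0.0588), nor the form without it without WT replicate 1 (adjusted p = 0.064). These forms also have different first exons. Over the 6 of 9 rows with a model, which hold at least 97.3% of *Tnnt2*'s TPM in each library, forms with the exon made up 45%, 56.7% and 42.6% in WT and 41.7%, 37.5% and 33.5% in GPR174-KO. The GPR174-KO libraries were lower, by a margin of under 1 percentage point between the nearest pair, and without WT replicate 2 the difference of the means was -6.27 percentage points in place of -10.56. Rows NM_001130174.2 and NM_001130175.2 were paired with the same model, and NM_001130178.2 and NM_001130179.2 with another. Exon content was therefore not read separately for these rows. NM_001130175.2 held 5.42% of *Tnnt2* in WT replicate 3, more than the margin between the nearest pair.

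For *Tnnt3* only 8 of 40 rows had a model, and they held between 38.7% and 45.9% of its TPM, so what follows describes these rows and not the gene. The 4 rows with the 39-base exon summed to 3194, 3380 and 3590 TPM in WT and 2473, 2444 and 2247 TPM in GPR174-KO. The 4 rows without it summed to 6382, 5875 and 5135 TPM in WT and 2516, 2440 and 2238 TPM in GPR174-KO. Means in GPR174-KO were 0.705 of WT with the exon and 0.414 without it. The share with the exon was therefore 33.4%, 36.5% and 41.2% in WT and 49.6%, 50% and 50.1% in GPR174-KO.

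**Figure D4:**
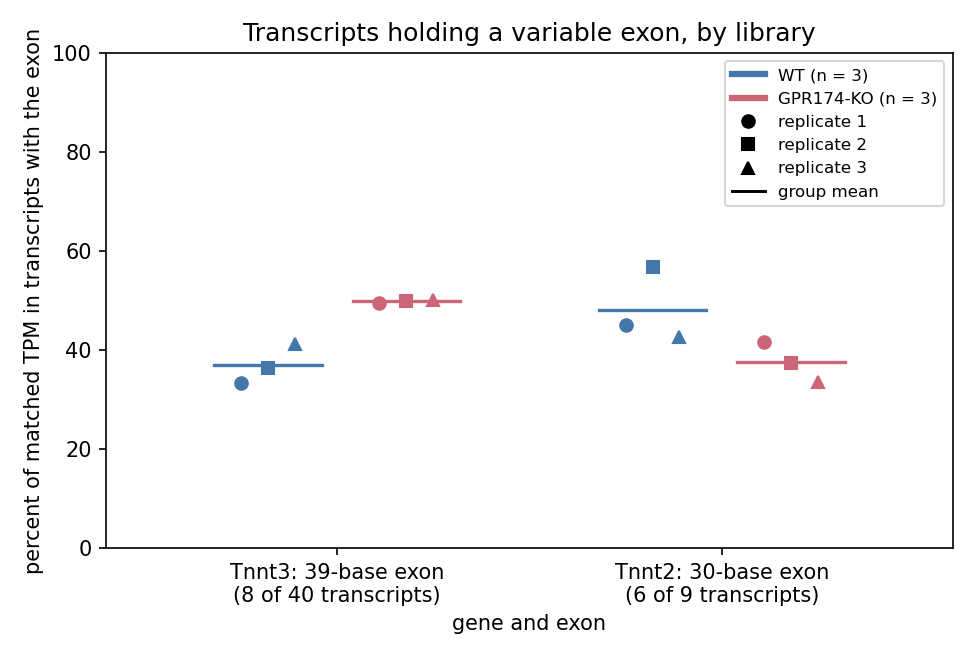
Percent of TPM in transcripts that hold a variable exon, among the transcripts with an exon model, in each library (WT blue, GPR174-KO red, lines are group means, n = 3). For *Tnnt3* the GPR174-KO libraries sit between 49.6% and 50.1%, above the WT libraries, and for *Tnnt2* they sit between 33.5% and 41.7%, below the WT libraries.

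Other *Tnnt3* rows with at least 10% of the gene in a group were NM_001347549.1 (log2 fold change -1.37, SE 0.19), NM_001347548.1 (-1.42, SE 0.12) and NM_001163666.1 (-0.95, SE 0.06), the last with the 39-base exon. *Tnnt1* was led by NM_001277903.1, at 40.9% and 42.6% of the gene in WT and GPR174-KO, and NM_011618.2, at 47.1% and 44.5%. Neither was called. *Tnni1* was divided between NM_021467.5, at 62.9% and 54.9%, and NM_001112702.1, at 37% and 45.1%, neither called. *Tnni3* was divided between NM_009406.4 and XM_017322110.1, each under 20 counts in every library. *Tnni2*, *Tnnc1* and *Tnnc2* had 1 row each. The rows of *Tnni2* and *Tnnc2* were called lower. The row of *Tnnc1* was not called in the transcript fit (log2 fold change 1.12, SE 0.27, adjusted p = 0.0611), although the gene was called in the gene fit.

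The partners of troponin on the thin filament and its ends mostly fell with the fast subunits. Of 12 such genes 10 were called lower and 1 higher, with a median log2 fold change of -0.89 (0.0 over all genes). The lowest were *Tcap*, which caps titin at the Z-disc (-1.7, SE 0.11, adjusted p = 0.000415), and *Tpm1*, alpha-tropomyosin (-1.49, SE 0.16, adjusted p = 0.00108). The smallest fall among the called genes was that of *Lmod3*, an actin nucleator of the thin filament (-0.44, SE 0.06, adjusted p = 0.00184). It was not called with total counts (-0.17, adjusted p = 0.073). *Tpm3*, the gene of slow tropomyosin, rose by 0.37 (SE 0.09, adjusted p = 0.0145), a call that was lost without WT replicate 2 or GPR174-KO replicate 2. All transcripts of *Tpm3* were summed, so its slow-muscle form was not measured apart from its other forms. *Actc1*, cardiac actin, was not called (-0.28, SE 0.15, adjusted p = 0.144). The lists share genes: *Tpm1* is also counted among the fast fibre genes below, *Tpm3* among the slow ones and *Actc1* among those of developing fibres.

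All 13 fast fibre genes were called lower, with a median of -1.49. They ranged from *Myh2*, fast myosin heavy chain of type IIa fibres (-2.8, SE 0.22), and *Pvalb*, the calcium buffer parvalbumin (-2.34, SE 0.3), to *Myl1* and *Mylpf*, fast myosin light chains (both -1.28, SE 0.14 and 0.16). The fast troponins, at -1.45, -1.44 and -1.31, lay between the median of this list and its smallest fall.

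Most slow fibre genes were lower in GPR174-KO muscle. Of 11 genes 10 were tested, 6 were called lower and 1 higher, *Tpm3*, with a median of -1.19. *Myl2*, slow regulatory light chain, measured 164.4, 134.9 and 106.3 TPM in WT and 7.11, 8.92 and 11.09 TPM in GPR174-KO. *Myl3*, slow essential light chain, measured 107.7, 92.7 and 70.35 TPM in WT and 5.19, 6.48 and 9.04 TPM in GPR174-KO. For both light chains every GPR174-KO library was far below every WT library, with log2 fold changes of -4.29 (SE 0.24, adjusted p = 0.000312) and -4.11 (SE 0.26, adjusted p = 0.000391). *Myoz2*, a slow Z-disc protein, fell by 1.1 (SE 0.23, adjusted p = 0.00721). *Myh7*, slow myosin heavy chain, was named after its value was seen, and measured 15.82, 11.33 and 5.11 TPM in WT and 3.67, 4.97 and 7.34 TPM in GPR174-KO. Its groups overlapped, WT replicate 3 lying below GPR174-KO replicate 3. It was called lower (log2 fold change -1.43, SE 0.44, adjusted p = 0.0305), but in only 6 of 16 alternatives (adjusted p up to 0.105), and not without WT replicate 1 or 2 or GPR174-KO replicate 1 or 2. *Tnnc1* was called higher, and *Tnnt1* and *Tnni1* were not called, in the same libraries.

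Genes of developing and regenerating fibres were mostly higher. Of 12 genes 9 were called higher and none lower, with a median of 0.93. The largest were *Mymx*, the myoblast fusion protein myomixer (3.58-fold, log2 fold change 1.84, SE 0.23), and *Chrng*, the fetal subunit of the acetylcholine receptor (3.21-fold, 1.68, SE 0.17). The smallest called were *Cdh15*, M-cadherin of muscle precursors (0.72, SE 0.08), and *Myod1*, the myogenic factor MyoD (0.54, SE 0.07). *Tnnt2* and *Tnnc1*, at 1.3 and 1.09, lay within the range of these called genes. The embryonic and perinatal myosins *Myh3* and *Myh8* were not called (0.85, SE 0.41, and 0.2, SE 0.19), though both were without WT replicate 3 (1.4, adjusted p = 0.0127, and 0.4, adjusted p = 0.0315).

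**Figure D5:**
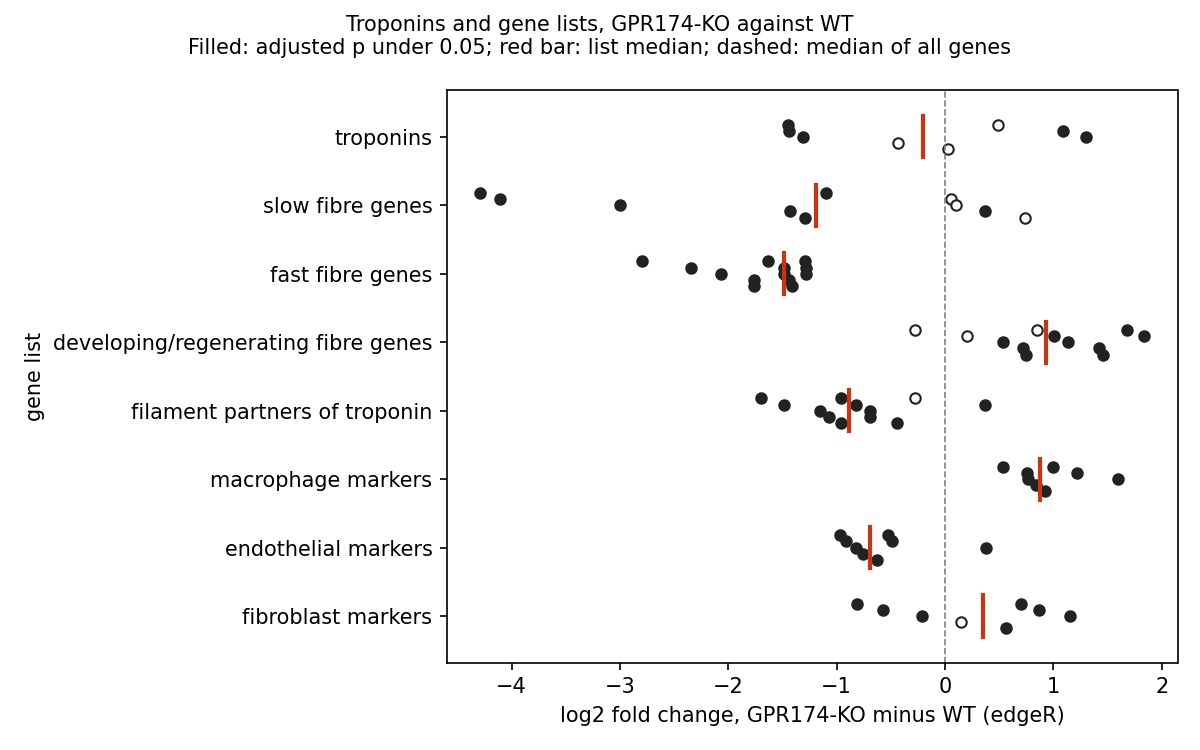
Log2 fold change (GPR174-KO minus WT, edgeR, n = 3 each) of each tested gene in 8 lists, filled where the adjusted p is under 0.05, with the list median in red and the median of all genes dashed. The troponins divide into 3 genes near -1.4, 2 genes above 1 and 3 open points between, while the slow fibre genes reach down to -4.29.

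Genes with the most similar pattern were sought for each member with a mean of at least 10 CPM, among 9965 other genes at that level, by the distance between log2 CPM values over the 6 libraries, each gene centred on its own mean. *Tnnt3* and *Tnni2* had the same 3 nearest genes, *Tpm1*, *Ckm* (muscle creatine kinase) and *Dok4*, at distances from 0.05 to 0.11. Nearest to *Tnnc2* were *Mlxipl*, *Mpc2* and *Slc25a4* (0.07 to 0.11), to *Tnnt2* *Myof*, *Spon1* and *Megf6* (0.06 to 0.09), and to *Tnnc1* *Pmepa1*, *Tubb6* and *Col27a1* (0.02 to 0.09). Nearest to *Tnni1* were *Cx3cl1*, *Ccn1* and *Scarf2* (0.04 to 0.14), and to *Tnnt1* *Lgals8*, *Lclat1* and *Cirbp* (0.02 to 0.05). The members were left out of this search.

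Markers of other cells moved between the same groups. All 8 macrophage markers were called higher, with a median of 0.88 and a sum of 1370 to 2153 TPM in WT and 4435 to 4626 TPM in GPR174-KO. Examples are *Itgam* (1.6, SE 0.22), *Cd68* (1.22, SE 0.2), *Ptprc* (0.76, SE 0.17) and *Mrc1* (0.54, SE 0.08). Most of the macrophage sum was *Lyz2*, at 1099, 1298 and 1649 TPM in WT and 3493, 3501 and 3525 TPM in GPR174-KO. Of 8 endothelial markers 7 were called lower and 1 higher, with a sum of 513.6 to 553.5 TPM in WT and 415.5 to 441.7 TPM in GPR174-KO. The lowest were *Cldn5* (-0.97, SE 0.08) and *Kdr* (-0.91, SE 0.11), the smallest fall was in *Emcn* (-0.49, SE 0.08), and *Vwf* was higher (0.38, SE 0.05). Of 8 fibroblast markers 4 were called higher, led by *Postn* (1.15, SE 0.27) and *Col1a1* (0.87, SE 0.19). A further 3 were called lower, led by *Lum* (-0.81, SE 0.06) and *Dcn* (-0.57, SE 0.07). The third, *Pdgfra* (-0.21, SE 0.05), had a direction that depended on the scaling. Its TPM was 20.52, 22.08 and 22.35 in WT and higher, at 23.13, 24.01 and 27.07, in GPR174-KO. The sum of all 8 was 4916 to 8006 TPM in WT and 13220 to 13390 TPM in GPR174-KO. Most of this sum came from *Col1a1*, *Col3a1* and *Postn*, so it does not describe the other fibroblast markers. The part of these cells in the troponin differences was not tested. Markers of heart muscle had few counts, and 6 of 8 were listed. Their sum was 0.62 to 0.84 TPM in WT and 1.4 to 1.91 TPM in GPR174-KO. None passed the filter on low counts, so none was tested. No listed marker had more than 9 counts in any library, and *Tbx5* had at most 2.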

How the data were processed

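RNA from ischemic gastrocnemius of 3 WT and 3 GPR174-KO mice was sequenced by a service company (a BGISEQ platform per the methods, a TruSeq kit per the labels). The authors deposited expected counts per RefSeq transcript (not normalized), FPKM and TPM; the group averages were not used. Per the labels, processing used HISAT2 2.0.4, Bowtie2 2.2.5, RSEM 1.2.12 and GRCm39, and strand use is not given in the sources used here.

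Expected counts were summed per Entrez gene and rounded. Genes were compared with edgeR 4.0.16 (TMM, filterByExpr, the robust form of its quasi-likelihood test, Benjamini-Hochberg adjustment over all genes tested) in R 4.3.3, and transcripts likewise. The standard error is the log2 fold change divided by the square root of F. Thresholds were an adjusted p of 0.05 and, where stated, an absolute log2 fold change of 1. Shares and ratios used TPM and exact permutation tests (scipy 1.17.1). A count of 3 equals 0.155 to 0.163 CPM, and covers counting error only. In simulated data of 14371 genes for this comparison, the fit recovered 96% of 100 genes changed by 1 and 100% of 100 changed by 2 on the log2 scale. Those data had independent libraries and the same dispersion (0.00967) for every gene, and the changed genes were well counted and balanced between up and down. The order of the replicates and the wider WT spread were not simulated, so these rates are not the power of the real comparison.

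The members and gene lists were chosen with earlier results of these data known. Named genes are all 8 members and transcripts with at least 10% of their gene in either group. In each list, they are also the 2 called genes with the highest and the 2 with the lowest log2 fold change. The 3 genes nearest in pattern to each member with a mean of at least 10 CPM are named too. *Actc1*, *Col3a1*, *Lyz2*, *Myh3*, *Myh7*, *Myh8* and *Pdgfra* were added after their values were seen. Alternatives were DESeq2 1.42.0, upper-quartile and total-count scaling, other filters, limma 3.58.1 (voom, and log2 FPKM with a pseudocount of 1 or 0.1, with or without a minimum FPKM of 1 in 3 libraries), a replicate block, FPKM or CPM for ratios, and leaving out each library. Same-numbered libraries come from different mice and their deviations were uncorrelated (0.008, 0.05 and 0.005), so the main fit has no block. Coordinates are on GRCm38, the build of the sequence tables, and none was taken to GRCm39.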

Additional observations from a re-analysis of the deposited data

How the results depend on the processing

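The 5 called troponin genes kept their call under 16 alternatives, and 3 were past both thresholds as lower in each. The number called higher was 4 in place of 2 with total counts and with each of the 3 limma fits on log2 FPKM, where *Tnnt1* and *Tnni1* joined. With 1 library left out, between 1 and 2 were past both thresholds as higher, since *Tnnc1* fell under 1 without WT replicate 1. *Tnnt1* changed sign without WT replicate 1 (-0.0042) and without GPR174-KO replicate 3 (-0.01), within a range of -0.01 to 0.09 with 1 library left out. Over all genes, 1192 were past both thresholds, 645 with limma on log2(FPKM + 1), 646 with the same and no filter, and 924 to 1826 with 1 library left out, the highest without WT replicate 3.

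The replicate block left the 2 higher and 3 lower calls among the troponin genes and gave 6812 called genes in place of 7863. At the transcript level 4413 were called, 9170 with DESeq2, 2478 without the filter, and 0 with the replicate block (edgeR, 6605 at an unadjusted p under 0.05). With 1 library left out, 1 to 5716 transcripts were called, with 1 without WT replicate 2 or GPR174-KO replicate 1 or 2, 28 without GPR174-KO replicate 3 and 2151 without WT replicate 1; the cause was not tested. Among transcripts with a value near 0, NM_011618.2 turned to 0.23 with total counts and ranged from -0.06 to 0.03 with 1 library left out, and XM_017322110.1 ranged from -0.58 to 0.02.

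With CPM, which is not per length, in place of TPM, the difference in share (percentage points) was 4.04 for *Tnnt2*, 12.68 for *Tnni1* and -12.7 for *Tnni2*, in place of 3.58, 9.18 and -9.2. The slow to fast ratios were within 0.01 with FPKM or CPM, and with 1 library left out they ranged from 1.32 to 1.67 for troponin T, 1.64 to 2.27 for troponin I and 2.11 to 2.82 for troponin C. Exon shares were an addition chosen after seeing the data. With 3 libraries a group, a permutation test cannot pass 0.05, and depth limits *Tnni3*, at 16 to 30 counts.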
